A study of Mus musculus with 6 samples.

Results

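Keratins 7, 8, 18, 19, 20, 23 and 80, the keratins of simple epithelia, were examined in small intestinal organoids treated with low-density lipoprotein (LDL) or with PBS. The Ensembl identifiers of the 7 genes were found through the GENCODE mouse annotation. The genes were chosen by symbol, with earlier results of these data known and with no threshold on a measured value. They are 7 of 55416 genes in the table, and all 7 passed the filter on low values that left 18459 genes for testing, although Krt80 did so only through its LDL-treated libraries. The same annotation holds 54 protein-coding keratin genes, of which the other 47 are used here for comparison. Organoids are small hollow cultures of epithelium that grow from crypts embedded in a gel and hold stem cells and their progeny. Crypts of the duodenum and jejunum were taken from 3 WT C57BL/6 mice, and organoids of each mouse received either 50 μg/ml LDL (LDL-treated) or the control PBS (PBS-treated) for 5 days, which gave 3 libraries per treatment. The age and sex of the mice are not given in the sources used here. The LDL- and PBS-treated libraries with the same replicate number carry 1 animal identifier, and are called mouse 1, mouse 2 and mouse 3 below.

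Keratins are the intermediate filament proteins of epithelial cells. A filament subunit is a pair of 1 acidic type I and 1 basic type II keratin, and simple epithelia such as the gut lining build their filaments mainly from KRT8 with KRT18, KRT19 and KRT20. These filaments attach to desmosomes between neighboring cells and to hemidesmosomes at the base, and give the cell sheet its mechanical strength. In the small intestine KRT20 is known from differentiated villus cells, and KRT7 is better known from ducts of other organs.

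Each library held between 22061545 and 31073360 reads assigned to genes. The LDL-treated library of mouse 1 stood apart in that its reads covered 35781 genes, against 29285 to 32751 in the other 5. The genotype label of all 6 libraries is WT, but the identifier of mouse 3 has another prefix than those of mice 1 and 2, so calls are also given without its libraries. The defining markers of intestinal epithelium (Epcam, Cdh1, Vil1, Cdx2 and Cldn7) were present in every library, with sums of 58878 to 63417 normalized counts with LDL and 54682 to 56505 with PBS, and none of the 5 was called. A normalized count here is the number of reads on a gene divided by 1 size factor per library, and it is compared between libraries for the same gene.

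The type II genes lie on chromosome 15 and the type I genes on chromosome 11, except Krt18. In GRCm39 coordinates, Krt80 (101245325 to 101268043, minus strand) and Krt7 (101308924 to 101328194, plus strand) are neighbors at one side of the chromosome 15 keratin cluster, with 40880 bases between them. Krt8 (101905133 to 101912917, minus strand) and Krt18 (101936615 to 101940462, plus strand) stand at the other side, 23697 bases apart. On chromosome 11, all on the minus strand, lie Krt20 (99319227 to 99328985), Krt23 (99366873 to 99383963) and Krt19 (100031636 to 100039491). The RefSeq promoter table (build GRCm38.p6) held windows for Krt7, Krt8, Krt18, Krt20 and Krt23, each with 1 exact match of 250 upstream bases in GRCm39. The windows of Krt8, Krt18 and Krt20 are shown because, of the 6 motifs searched on both strands, AGGTCA, the half-site of nuclear receptors such as PPARs, occurred in these 3 of 5, and in 14.0% of all 32851 RefSeq windows of this length. The motifs were chosen with the sequences in view. Bases that the annotation assigns to the gene's own exons were left off, so that the shown parts are 110, 214 and 244 bases long, and capitals mark motif matches. The first 2 are chr15:101912918-101913027 (minus strand) and chr15:101936401-101936614 (plus strand), and the third is chr11:99328986-99329229 (minus strand).
Krt8: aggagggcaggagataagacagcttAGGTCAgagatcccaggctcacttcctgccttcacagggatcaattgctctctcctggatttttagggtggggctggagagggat
Krt18: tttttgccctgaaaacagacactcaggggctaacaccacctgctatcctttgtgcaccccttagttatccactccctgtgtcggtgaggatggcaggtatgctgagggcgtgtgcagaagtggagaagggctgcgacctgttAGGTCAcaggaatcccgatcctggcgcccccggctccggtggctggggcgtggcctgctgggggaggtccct
Krt20: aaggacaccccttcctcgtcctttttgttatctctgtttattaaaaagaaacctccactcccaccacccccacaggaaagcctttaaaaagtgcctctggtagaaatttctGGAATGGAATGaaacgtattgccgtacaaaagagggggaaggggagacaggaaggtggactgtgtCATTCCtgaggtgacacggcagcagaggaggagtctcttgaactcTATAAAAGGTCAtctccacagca

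In these letters AGGTCA ends 220 bases before the RefSeq start of Krt8, 103 bases before that of Krt18 and 18 bases before that of Krt20. In Krt20 it directly follows the TATA box letters TATAAA, which 12.4% of all windows hold. The other capitals in Krt20 mark 3 matches of GGAATG, the core of TEAD sites, 2 of them sharing a single base and 1 on the other strand. GGAATG occurred in 12.6% of all windows and in 1 of the 5. GGGCGG, the GC box, had 4 matches in the Krt7 window and none in the other 4, against 32.7% of all windows. In the Krt7 window, 162 of 250 bases lie in annotated exons of Krt7 itself. All 4 matches come after the first 82 bases, the stretch before these exons. TGACTCA, the AP-1 site, occurred in 4.46% of all windows, and AGGTCANAGGTCA, the direct repeat bound by PPAR with RXR, in 0.0335%. Neither was found in these 5 windows, which says only that the letters are not there.

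To evaluate the effect of LDL on these genes, LDL- and PBS-treated organoids were compared. In every mouse the LDL-treated library held more of each of the 7 keratins, as for 24.2% of all genes tested. For all 7 the lowest LDL-treated library lay above the highest PBS-treated one, as for 11.9% of genes. The differences were smallest for Krt19 and Krt8, which hold the largest part of the keratin RNA, and largest for Krt23 and Krt80, which hold the smallest. By limma, only Krt80 passed the test that treats the 6 libraries as independent, where 0.878% of genes were called higher. With the mouse added as a block 6 of 7, all but Krt19, passed, against 5.68% of genes. Krt80 entered these tests only through its LDL-treated libraries, and counts without it are given below. RNA was taken from whole cultures, in which more cells of a keratin-rich type and more keratin RNA per cell cannot be told apart.

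**Figure D1:**
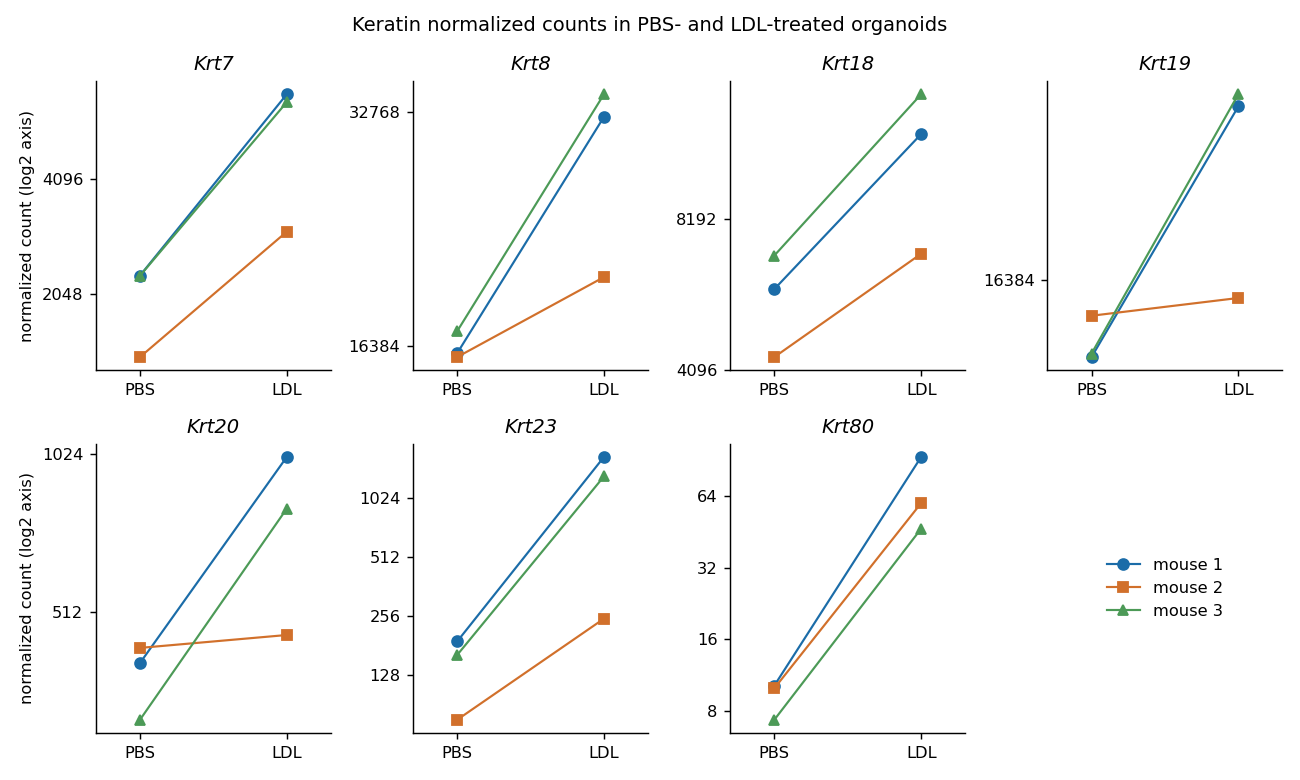
Normalized counts of the 7 keratins (log2 axes, each with its own range) in the PBS- and LDL-treated organoids of the 3 mice, with a line joining the libraries of 1 mouse. Every LDL point lies above the PBS point it is joined to, and the line of mouse 2 is nearly level for Krt19 and Krt20.

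Among the type II genes, Krt8, the main type II keratin of simple epithelia, had 32339.8, 20109.5 and 34579.8 normalized counts in the LDL-treated organoids of mice 1, 2 and 3, and 16044, 15863 and 17125 in the PBS-treated ones. The PBS-treated libraries lay close together, and the LDL-treated library of mouse 2 was nearest to them. The means were 29009.7 ± 7789 with LDL and 16344 ± 682 with PBS (SD, n = 3). This is a log2 fold change of 0.79 ± 0.20 (SE), with an adjusted p of 0.1005 from limma and of 0.0108 with the mouse as a block. Krt7, another type II keratin that can pair with KRT18 or KRT19, had 6838, 2979 and 6519.6 normalized counts with LDL and 2284, 1395 and 2281 with PBS. The counts of mouse 2 were the lowest in both treatments, and those of mice 1 and 3 were nearly equal in each. Its log2 fold change of 1.40 (SE 0.33) gave an adjusted p of 0.0879 from limma, and of 0.000274 with the block.

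Krt80, a type II keratin found near desmosomal plaques, was the only keratin that limma called without the block. Its normalized counts were 93.9, 60.0 and 46.8 with LDL and 10.2, 9.94 and 7.33 with PBS. These are small numbers, since the PBS-treated libraries held 10, 8 and 9 reads on the gene and the LDL-treated ones 77, 66 and 56. The mean of 9.16 normalized counts with PBS is under the filter of 10, and the gene entered the test through its mean of 66.9 with LDL. On counts plus 1, the log2 fold change was 2.69 ± 0.33 (SE, adjusted p = 0.0136 from limma, 0.000894 with the block). Unlike for the other 6, mouse 2 was not the lowest of the LDL-treated libraries. The call without the block was lost when LDL replicate 3 or any 1 of the PBS replicates was left out, with adjusted p from limma of 0.0529 to 0.0725, and with both libraries of mouse 3 left out (0.364).

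Of the type I genes, Krt18, the usual partner of KRT8, had 12079, 6975 and 14500 normalized counts with LDL and 5929.8, 4342 and 6917 with PBS. The LDL-treated library of mouse 2 was only just above the PBS-treated library of mouse 3, while within each mouse the LDL-treated library was well above its partner. Accordingly, the log2 fold change of 0.93 had a standard error of 0.28 without the block and 0.098 with it (adjusted p from limma 0.132 and 0.00116). Krt19, a small type I keratin without the tail domain of the others, had 24346, 15739 and 25029 normalized counts with LDL and 13758, 15115 and 13866.5 with PBS. In mouse 2 the values with LDL and PBS were almost the same. The log2 fold change was 0.58 (SE 0.18), with an adjusted p from limma of 0.144, and of 0.0457 with the block. The change of 1.49-fold is just under the 1.5-fold threshold, so Krt19 was called in neither fit.

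Krt20, the type I keratin of differentiated intestinal cells, had 1011, 463 and 806 normalized counts with LDL and 409, 437 and 319 with PBS. As for Krt19, mouse 2 hardly differed between treatments. The log2 fold change was 0.91 ± 0.27 (SE, adjusted p = 0.133 from limma, 0.0334 with the block). Krt23, a less studied type I keratin, had 1655, 248 and 1318 normalized counts with LDL and 189.9, 75.8 and 162 with PBS. Mouse 2 was the lowest in both treatments, and its LDL-treated library was only a little above the PBS-treated library of mouse 1. The log2 fold change of 2.61 therefore had the largest standard error of the 7, 0.69, and an adjusted p of 0.104 from limma. With the block the standard error was 0.25 and the adjusted p 0.000819.

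Krt80, which was tested only because it was high with LDL, is left out of the counts that are set beside all genes here. The keratins were chosen with earlier results of these data known, so these counts describe the genes and are no independent test. Of the other 6 keratins, 0 were called higher by limma without the block, against 0.878% of the genes tested, and 0 were called lower, against 0.395%. At an unadjusted p under 0.05 from limma these 6 were higher and 0 lower, against 9.96% and 9.73% of genes. With the block 5 of the 6 were called higher, against 5.68% of genes, and 0 lower, against 3.46%. All 6 had every LDL-treated library above every PBS-treated one, as 11.9% of the genes tested did. The log2 fold changes of the 6 ran from 0.58 to 2.61, and the median of all genes tested was -0.02. Over all 7, Krt80 included, the count of keratins called by limma depended on the LDL-treated library of mouse 2. Without it all 7 were called, each with an adjusted p of 0.0042 or less from limma. The calls over all genes moved as well, from 162 to 1179 higher and from 73 to 1133 lower. Leaving out LDL replicate 1, the library with reads on the most genes, kept the count of keratins at 1, with 100 genes called higher. The count of keratins was 0 when LDL replicate 3, any 1 PBS replicate or both libraries of mouse 3 were left out. The genes called higher were then 18, 27 to 55 and 0. DESeq2 on the recovered reads called 7 keratins without the block and 6 with it, where it called 846 and 981 genes higher. With edgeR 1 and 7 keratins were called, beside 186 and 1171 genes higher. The log2 fold change of each keratin was above 0 under upper-quartile scaling, quantile normalization and every other alternative.

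**Figure D2:**
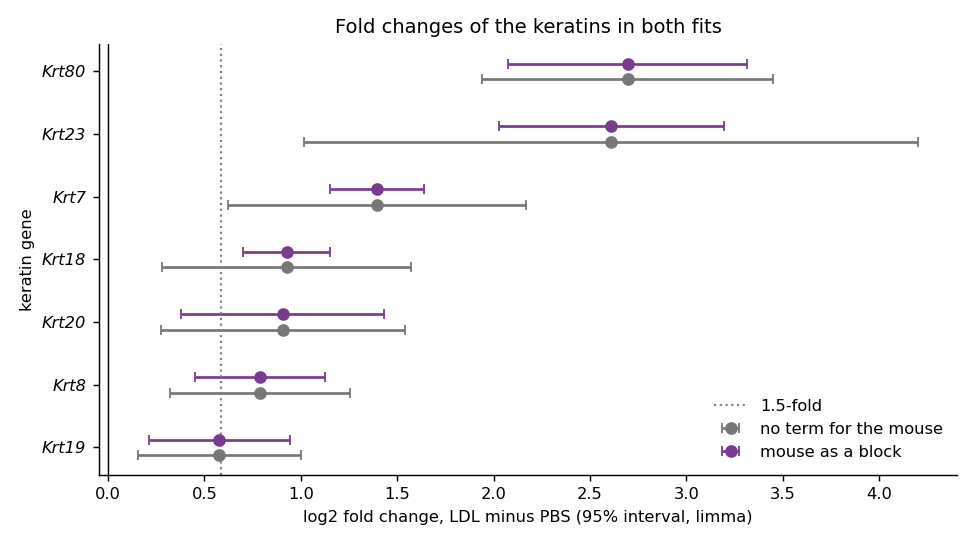
Log2 fold changes (LDL minus PBS) of the 7 keratins with 95% intervals from limma, without a term for the mouse (gray) and with the mouse as a block (purple); the dotted line marks 1.5-fold. No interval reaches 0, and the intervals of Krt23, Krt7 and Krt18 are much narrower with the block.

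Within mice, the LDL-treated library held more of each keratin than its PBS-treated partner in 3 of 3 mice. For Krt8 the ratio was 2.02, 1.27 and 2.02 in mice 1, 2 and 3, and for Krt18 it was 2.04, 1.61 and 2.10. Krt7 had ratios of 2.99, 2.13 and 2.86. For Krt19 they were 1.77, 1.04 and 1.81, and for Krt20 2.47, 1.06 and 2.53. In other words, mice 1 and 3 gave nearly the same ratio for each of these genes. Krt23 had ratios of 8.72, 3.28 and 8.13, and Krt80 of 9.20, 6.04 and 6.39. The smallest ratio was that of mouse 2 for all 7 keratins. Of the 4476 genes tested that were higher with LDL in all 3 mice, 50.6% also had their smallest difference in mouse 2.

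**Figure D3:**
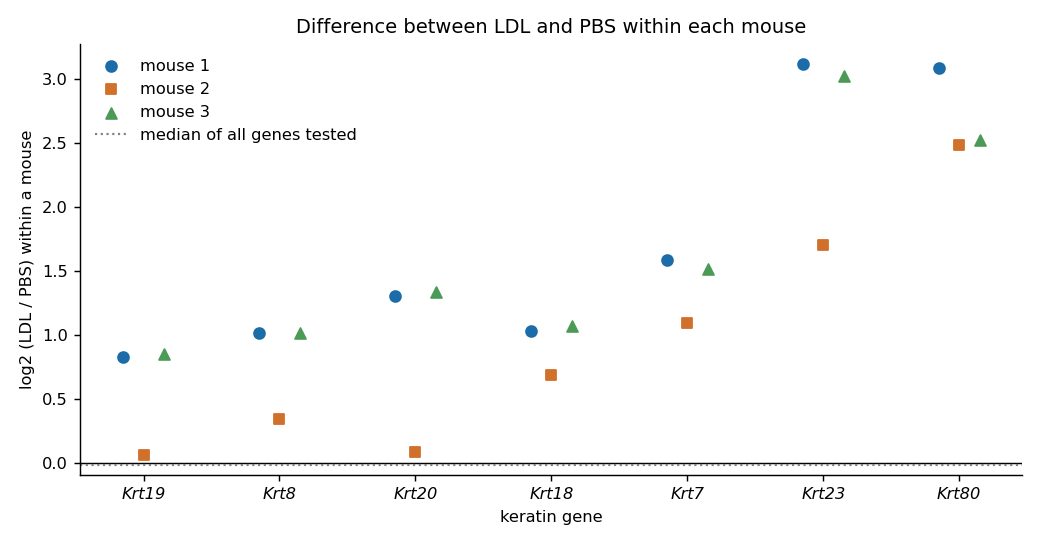
Log2 difference between the LDL- and PBS-treated library of each mouse (on counts plus 1) for the 7 keratins, with the median log2 fold change of all genes tested (-0.02) as a dotted line. Mice 1 and 3 lie together and mouse 2 below them for 6 of 7 genes, while for Krt80 mouse 2 (2.48) is close to mouse 3 (2.52).

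Levels of different keratins were compared as normalized counts per kilobase of exonic length. On this scale Krt8 was the most abundant, with 14816 ± 3978 with LDL and 8347 ± 348 with PBS (SD, n = 3), followed by Krt19 with 11701 ± 2791 and 7680.2 ± 407. Krt18 had 7783 ± 2673 and 3987 ± 904. These 3 ranked 61, 66 and 110 by mean level per kilobase among the 12995 protein-coding genes tested. The others were far lower, with Krt7 at 773 ± 304 and 282 ± 72.6, Krt20 at 392 ± 143 and 201 ± 31.9, Krt23 at 307 ± 210 and 40.8 ± 17.0, and Krt80 at 10.5 ± 3.80 and 1.43 ± 0.249. Their ranks were 1264, 2439, 4121 and 11825. The order was the same in 5 of 6 libraries. In the PBS-treated library of mouse 2, Krt19 stood above Krt8 and Krt20 above Krt7. Levels of Krt8 and Krt19, and of Krt7 and Krt20, overlapped between libraries in both treatments, those of Krt19 and Krt18 and of Krt20 and Krt23 overlapped with LDL only, and the steps from Krt18 to Krt7 and from Krt23 to Krt80 overlapped in neither. The steps between Krt8 and Krt19 and between Krt7 and Krt20 also depend on the length used. Per kilobase of the canonical transcript, Krt19 was above Krt8 in all 3 PBS-treated libraries, and Krt7 was above Krt20 in every library.

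Summed over the 7 genes, the level per kilobase was 40027, 24351 and 42969.6 in the LDL-treated organoids of mice 1, 2 and 3, and 20329, 19719 and 21571 in the PBS-treated ones. The groups did not overlap, and the LDL-treated library of mouse 2 was the closest to the PBS-treated ones. The log2 difference was 0.76, or 1.97-, 1.23- and 1.99-fold within the mice (exact permutation test, two-sided, p = 0.1; sign-flip test within mice, p = 0.25; each the smallest this design can give). The 7 genes took up 0.180% to 0.340% of all normalized counts with LDL and 0.136% to 0.161% with PBS. They held 99.1% to 99.6% of the counts on keratin genes in every library.

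The balance between the filament partners differed little. The summed level of the type II genes Krt7, Krt8 and Krt80 divided by that of the 4 type I genes was 0.777, 0.784 and 0.763 with LDL and 0.721, 0.727 and 0.726 with PBS. All LDL-treated ratios lay above all PBS-treated ones, by 0.10 on the log2 scale (exact permutation test, two-sided, p = 0.1, the smallest possible). With counts not divided by length the difference was 0.15, between ratios of 0.988 to 1.005 with LDL and 0.865 to 0.913 with PBS. The ratio of Krt8 to Krt18 overlapped between treatments, at 1.97, 2.12 and 1.75 with LDL and 1.99, 2.68 and 1.82 with PBS (exact permutation p = 0.6). Within the summed level, the share of Krt19 was 32.8%, 34.8% and 31.4% with LDL and 36.5%, 41.3% and 34.7% with PBS, lower with LDL in all 3 mice, while the groups overlapped. The share of Krt8 was 41.1% to 42.2% with LDL and 40.3% to 41.1% with PBS, 2 ranges that nearly touch. Krt7 made up 1.74% to 2.42% with LDL and 1.004% to 1.59% with PBS, and Krt23 0.292% to 1.18% and 0.110% to 0.267%. The shares of Krt7, Krt8, Krt23 and Krt80 did not overlap between treatments, but over the 7 shares tested the smallest adjusted p of the exact permutation test was 0.175. With counts not divided by length, the shares of Krt8 overlapped. Those of Krt19 did not on that scale, at 30.2% to 33.8% with LDL and 34.1% to 40.6% with PBS. The share of Krt7 was then 6.40% to 8.73% with LDL and 3.75% to 5.91% with PBS. Per kilobase of the canonical transcript, Krt7 had 2.78% to 3.88% and 1.60% to 2.55%.

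**Figure D4:**
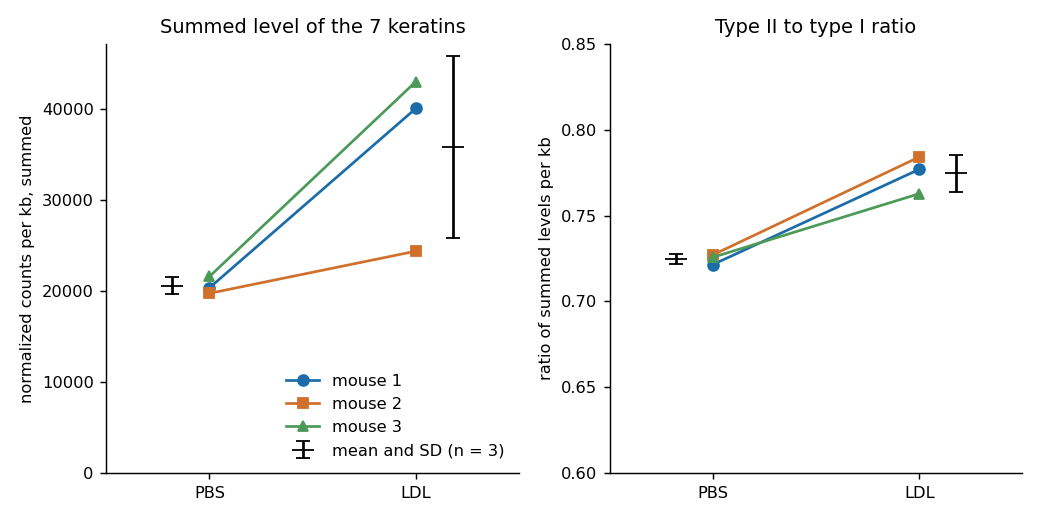
Left, summed level of the 7 keratins in normalized counts per kilobase. Right, ratio of the summed type II to the summed type I level (axis from 0.60 to 0.85). Points are libraries, joined within a mouse, and bars are the mean and SD (n = 3). Both measures are higher with LDL in each mouse, and the LDL-treated library of mouse 2, at 24351, lies nearest to the PBS-treated ones.

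Copies and overlapping genes could share reads with the keratins. A processed pseudogene on chromosome 7, Krt8-ps, matches 941 bases of Krt8 at 98.6% identity, and its counts were 5.55% to 6.19% of those of Krt8 in every library. Adding both together left the ratios of Krt8 in mice 1, 2 and 3 at 2.02, 1.26 and 2.01. Gm5200, a Krt18 copy on chromosome 13, held at most 0.0261% of the counts of Krt18. On the opposite strand, the noncoding gene Gm35853 shares 296 exonic bases with Krt80 and had 89.0, 52.7 and 46.8 normalized counts with LDL and 39.8, 18.6 and 23.6 with PBS. The libraries were stranded, but the strand setting of the counting is not given in the sources used here, so reads of Krt80 and Gm35853 on the shared bases may not have been told apart. Gm671 over Krt7 (77 shared bases) and Gm36026 over Krt8 (101 shared bases) had at most 23.2 normalized counts in any library. Gm73150 shares 329 exonic bases with Krt19 and was not analysed here.

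The genes with the most similar profiles were found by the root-mean-square difference of log2 values, centered on each gene's mean, over the 6 libraries. Among 10246 protein-coding genes with a mean of at least 100, the nearest to Krt8 were Abcc5 (0.052), Zfand2a and Endod1, and to Krt18 Phlda3 (0.068), S100a16 and Smox. Abcc5, a transporter gene, had 762, 478 and 769 normalized counts with LDL and 373, 339 and 394 with PBS, the same shape as Krt8 at a lower count. Krt7 was nearest to Tinagl1 (0.058), Ccdc141 and Tnfrsf12a, and Krt19 to Atp6v0a1 (0.054), Serpinb1a and Jag1. For Krt20 the nearest were 4930523C07Rik (0.11), Abhd2 and Kalrn, and for Krt23 Cavin1 (0.14), Slc9a4 and Cldn4. Cldn4, a tight junction claudin, had 3074, 523 and 2599.6 normalized counts with LDL and 344, 112 and 331 with PBS. Krt80 had no close neighbor, and its nearest genes Abhd6, Angptl4 and Vnn1 differed by 0.40, 0.42 and 0.43. These 3 were called without the block, with adjusted p from limma of 0.00137, 0.000281 and 0.00137. The 7 keratins were not each other's nearest genes: the closest pair was Krt8 and Krt19, at rank 38 for Krt8 and 39 for Krt19.

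Of the other 47 protein-coding keratins, most of which are known from stratified epithelium, skin and hair, 39 had a mean under 10 normalized counts and 1 of these, Krt24, had no read. Among the 8 tested, limma called 0 without the block and 4 higher with it, and DESeq2 called 3 higher without the block. These counts cannot be read against all genes, since 4 of the 8 passed the filter only through their LDL-treated libraries. They were Krt4, Krt78, Krt79 and Krt27, with PBS means under 10 normalized counts (7.28, 3.61, 1.70 and 2.45). Krt4, a type II keratin of the esophagus and other stratified linings, had 190.3, 36.4 and 222 normalized counts with LDL and 13.3, 1.24 and 7.33 with PBS. All LDL-treated libraries were above the PBS-treated ones, by 4.18 ± 0.85 (SE) on the log2 scale, with an adjusted p of 0.0615 from limma and of 0.000163 with the block. Krt79 had 63.4, 7.28 and 46.8 with LDL and 1.02, 0 and 4.07 with PBS (log2 fold change 3.76, with an adjusted p of 0.0854 from limma and 0.00286 with the block). Krt78 and Krt87 had log2 fold changes of 2.29 and 1.01 and were also called by limma only with the block. Krt10, Krt15 and Krt222 had log2 fold changes of 0.05, 0.36 and 0.14 and were not called. Krt27 differed by mouse, with 32, 0 and 23 reads with LDL and 4, 0 and 4 with PBS, and was not called either.

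The proteins that anchor keratin filaments at desmosomes and hemidesmosomes were taken as the next group. Of 23 genes 22 were tested. By limma 0 were called without the block in either direction. With it 7 were called higher and 0 lower, against 5.68% and 3.46% of all genes. DESeq2 without the block called 6 higher and 0 lower. The median log2 fold change of the 22 was 0.31. Of them 16 were higher and 1 was lower with LDL in all 3 mice, against 24.2% and 26.8% of all genes. On leaving out LDL replicate 2, the median was 0.50. Limma then called 8 higher without the block, beside 1179 of all genes. Dsg3, a desmosomal cadherin of stratified epithelium, had 474, 46.4 and 355 normalized counts with LDL and 39.8, 4.97 and 44.0 with PBS. Mouse 2 was far below the others in both treatments. The log2 fold change was 3.17 ± 1.02 (SE), and its adjusted p of 0.149 from limma was 0.000120 with the block. The plakins periplakin (Ppl), envoplakin (Evpl) and plectin (Plec), which link keratins to the cell edge, had log2 fold changes of 1.07, 0.67 and 0.69, and Fam83h, a keratin-binding scaffold, 0.83. Itgb4, the hemidesmosomal integrin chain, had 0.65 and Pkp4 0.63. In the fits to all libraries, limma called these 6 genes, from Ppl to Pkp4, only with the block. By contrast, the most abundant genes of the group were not called. Desmoplakin (Dsp), the main keratin linker of desmosomes, had 21171, 15839.9 and 20319.8 normalized counts with LDL and 16145, 15008.5 and 15812 with PBS, or 0.28 on the log2 scale (adjusted p = 0.299 from limma, 0.107 with the block). Eppk1 and Itga6 had log2 fold changes of 0.29 and -0.08. The plaque gene Pkp1 was lower with LDL in all 3 mice, with 1214, 1036 and 1346 normalized counts with LDL and 1705, 1395 and 1604 with PBS (log2 fold change -0.39, adjusted p = 0.149 from limma, 0.0175 with the block), and under 1.5-fold it was not called.

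**Figure D5:**
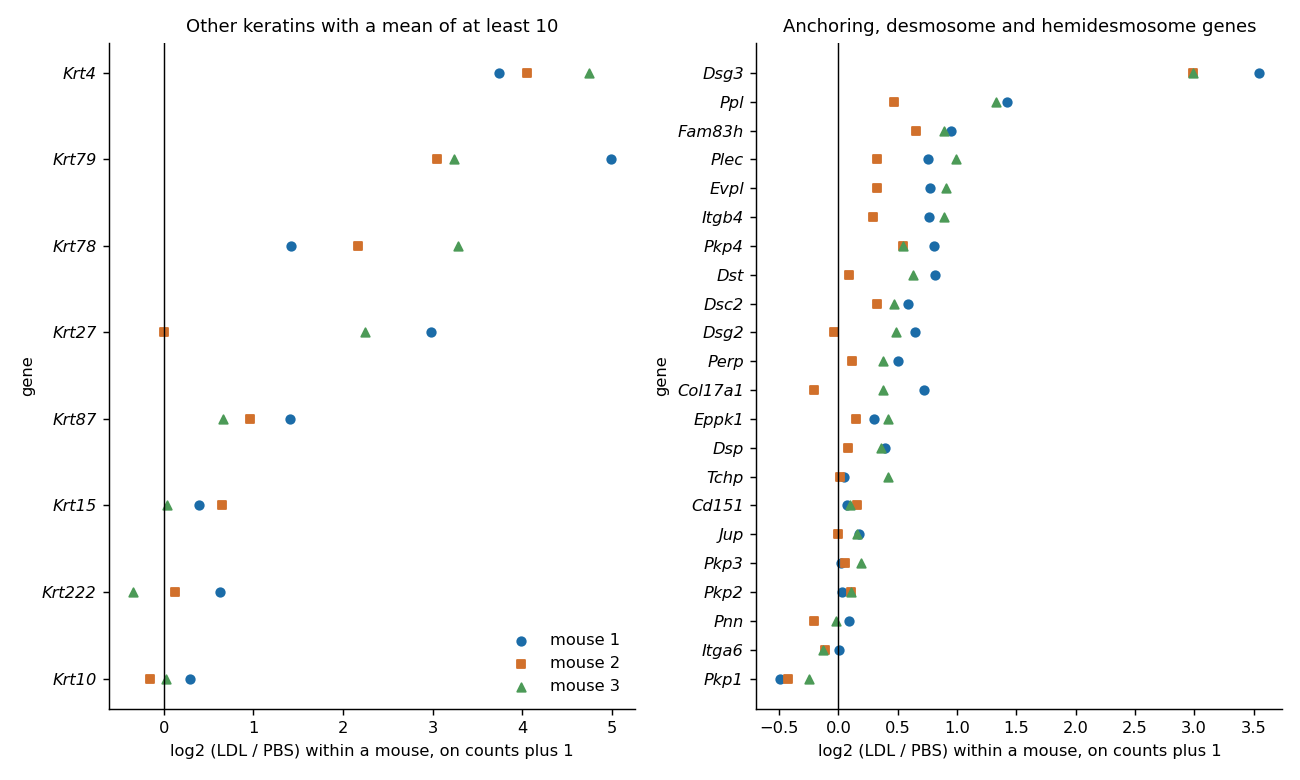
Log2 difference between the LDL- and PBS-treated library of each mouse (on counts plus 1) for the 8 other keratins with a mean of at least 10 (left) and for the 22 anchoring genes tested (right). Krt4, Krt79, Krt78 and Dsg3 lie above 1 in all 3 mice, and most anchoring genes lie between -0.5 and 1.

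Other intermediate filament proteins did not share one direction. Of 13 tested, 0 were called by limma without the block. With it 3 were called higher and 1 lower, against 5.68% and 3.46% of all genes. DESeq2 without the block also called 3 higher and 1 lower. The median was 0.07, and it was -0.05 under quantile normalization. Iffo2 had 1755, 1139 and 1641 normalized counts with LDL and 791, 437 and 724 with PBS (log2 fold change 1.24), and Iffo1 and nestin (Nes) had log2 fold changes of 0.81 and 2.06, of which Nes had a PBS mean under 10 and passed the filter only through LDL. Bfsp1, a lens filament gene, was called lower (-1.04), and vimentin (Vim), the filament of mesenchymal cells, had at most 140.0 normalized counts in any library and a log2 fold change of -0.56. Lamin A (Lmna) had 0.55 and was not called. Of 22 genes of stratified and cornified epithelium only 7 had enough counts to be tested. By limma none was called without the block, and DESeq2 without the block called 3 higher. With the block limma called 4 higher, against 5.68% of all genes: Sprr1a (4.58), Krt4, Tgm1 (1.68) and Sfn (0.76). Of these, Krt4 passed the filter only through its LDL-treated libraries. Krt5 and Krt13, which define stratified layers, had at most 3 reads in every library. Some other genes of the list under the filter had more reads with LDL. Krt14 had 5, 4 and 7 reads with LDL and 2, 0 and 0 with PBS, and Ivl 11, 1 and 17 against 0, 1 and 0. Others differed in direction between mice, such as Flg with 21, 4 and 1 reads against 1, 18 and 5. The 17 epithelial transcription factors, among them Cdx2, Hnf4a, Klf5 and Ehf, had a median of -0.14, which was -0.04 on leaving out LDL replicate 1, and 0 were called in either fit. Cdx1 had the largest difference, -0.58 on the log2 scale (adjusted p = 0.0981 from limma, 0.0144 with the block), which is under 1.5-fold.

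Markers of the cell types an organoid or a crypt preparation could hold were read from the same limma fits. Of all genes tested, these called 0.878% higher and 0.395% lower without the block, and 5.68% and 3.46% with it. Of 9 enterocyte markers, Alpi, the brush border alkaline phosphatase, was called higher (log2 fold change 2.13, adjusted p = 0.00828 from limma), and with the block 3 were called higher and 1, Lct, lower. Their summed normalized counts were 33707 to 65609 with LDL and 30822 to 58620 with PBS. Of 7 goblet markers, Clca1 was called higher and Fcgbp and Agr2 lower without the block, with sums of 26857 to 32188 and 44449 to 49968. Of 5 Paneth markers 0 were called without the block, and 1 higher and 2 lower with it (sums of 10100.2 to 12622 and 13228 to 21676). Of 5 stem cell markers 0 were called without the block, and 1 higher and 2 lower with it (sums of 11315 to 18031 and 16112 to 31177). Neither the 6 enteroendocrine markers nor the 4 tuft markers tested were called without the block, and Pou2f3 was called lower with it. The sums were 7272 to 11716 and 9475 to 14908 for enteroendocrine markers and 186 to 494 and 239 to 338 for tuft markers, of which Gnat3 had at most 3 reads in every library.

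A further list held 7 markers of fetal-like epithelium, the state of the gut lining before birth and during repair (among them Clu, Ly6a, Anxa1, Anxa3, Il1rn and Msln). By limma none was called without the block. With it all 7 were called higher, against 5.68% of all genes, and 1 of the 7 had passed the filter only through LDL. Their summed normalized counts were 22729.9, 2114 and 17089 with LDL and 1117, 164 and 803 with PBS in mice 1, 2 and 3, so that mouse 2 was the lowest in each treatment, as for Krt7, Krt8, Krt18 and Krt23. The part of these or the other cell types in the keratin differences was not tested. Markers of other tissue were scarce: 7 stromal markers summed to 30.9 to 86.6 normalized counts with LDL and 44.0 to 85.7 with PBS, 5 immune markers to 217 to 281 and 210.0 to 281, 4 endothelial markers to 15.5 to 37.8 and 17.9 to 33.7, and 4 mesothelial markers to 15.9 to 55.5 and 6.12 to 24.9. Of these 20 genes 6 had enough counts to be tested and 0 were called in either fit, and Bnc1 was among those with at most 3 reads in every library.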

How the data were processed

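RNA-Seq was analyzed in 6 libraries of WT organoids (3 mice, LDL or PBS). The deposited values have the unit signal: the authors aligned reads to GRCm39 with STAR, counted them per gene with featureCounts and divided the counts of a library by 1 size factor (DESeq2, bcl2fastq 2.20 upstream, per the labels). Whole reads were recovered for 100% of values within 0.01 read. Depth was 22061545 to 31073360 reads on genes, which limits the precision of low counts. Of 55416 identifiers, 54749 were found in GENCODE M39, which gave names, positions and lengths. Normalized counts plus 1 were taken to log2 where the mean over libraries reached 10 (18459 genes), and tested with limma 3.58.1 in R 4.3.3 (eBayes, trend, two-sided). Genes were called at a Benjamini-Hochberg adjusted p under 0.05 and over 1.5-fold. Since no pairing term is stated in the methods used, the fit had none, and the mouse as a block was the alternative. Libraries with the same number share 1 animal identifier in the labels, and after removal of treatment means they correlated with r = 0.48, 0.42 and 0.46 over genes. Other alternatives were pseudocounts of 0.5 and 5, no filter or a minimum mean of 50, upper-quartile and quantile scaling, left-out libraries, DESeq2 1.42.0 and edgeR 4.0.16 on recovered reads, any fold change, and other lengths. Copies were sought at 90% identity over at least 500 bases. Figures were made with Python 3.11.15 and matplotlib 3.10.9. Scripts were tested on simulated data. The keratins and lists were chosen with earlier results of these data known. Named were all 7 keratins, the other keratins tested, the 3 nearest profiles per keratin (minimum mean 100) and, per list, up to 5 called genes with the largest change beside the most abundant ones. For the anchoring genes, all 7 called with the block were named. Some genes of the lists are not reported by name.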

Additional observations from a re-analysis of the deposited data

How the results depend on the processing

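All 7 keratins kept a positive log2 fold change in every alternative that tested them (18, and 17 for Krt80, which has a mean under 50). The number called higher was 1 in the reported fit, 4 with no filter on the mean, 0 with a mean of at least 50, 6 with the replicate block, 7 with DESeq2, 6 with DESeq2 and the block, 7 with edgeR and the block, and 0 without both libraries of mouse 3. It ranged from 0 to 7 when 1 library was left out, with 7 only without the LDL-treated library of mouse 2. None was called lower anywhere. Over all genes, 162 were called higher and 73 lower, and these counts were 506 and 245 with no filter, 1048 and 639 with the replicate block, 846 and 348 with DESeq2, 981 and 511 with DESeq2 and the block, 1171 and 588 with edgeR and the block, and 0 and 0 without mouse 3. With 1 library left out they ranged from 18 to 1179 and from 2 to 1133, both lowest without LDL replicate 3 and highest without LDL replicate 2, and they were 27 and 3, 55 and 9, and 39 and 7 without PBS replicates 1, 2 and 3, and 100 and 44 without LDL replicate 1. The causes were not tested. The log2 difference of the summed level was 0.61 to 1.01, and that of the type II to type I ratio 0.087 to 0.15. With 3 libraries per treatment no exact test can go below 0.1, and Krt80 rests on 8 to 77 reads per library.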
